A study of Mus musculus with 6 samples.

Results

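The 37 genes described here belong to the machinery by which a muscle fibre breaks down its own protein and organelles: 3 FoxO transcription factors, 8 ubiquitin ligases, ubiquitin itself with 2 deubiquitinases, and 23 genes of autophagy and the lysosome. They were picked by gene symbol from the 53084 genes of a muscle RNA-seq count table, and all 37 had a row. The table compares 3 Tarsl2+/+ mice (mice 583, 584 and 595) with 3 Tarsl2-/- mice (588, 589 and 591), 1 library per mouse. All 6 were male C57BL/6 mice, 6 weeks of age, kept on standard chow in a specific pathogen-free room. In the Tarsl2-/- mice a fragment holding an exon of Tarsl2 had been deleted by CRISPR/Cas9 in the germline. The gene, which encodes a threonyl-tRNA synthetase-like protein, was therefore disrupted in all tissues. The muscle taken was not named. The mice carried separate numbers, and whether they were littermates was not stated.

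FoxO factors are transcription factors that insulin and growth factor signalling, acting through the kinase Akt, keeps out of the nucleus. When that signal falls, they enter the nucleus and raise the muscle ubiquitin ligases atrogin-1 (Fbxo32) and MuRF1 (Trim63), which tag muscle proteins for the proteasome, together with several autophagy genes. In autophagy a membrane marked by ATG8 proteins (the LC3 and GABARAP families) grows around cargo, which receptors such as p62 (Sqstm1) hand over, and then fuses with the lysosome.

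The libraries held 16176591 to 20123767 counts, so that 3 counts in a library were 0.149 to 0.185 CPM (counts scaled to a library of 1000000). This range uses the plain totals, whereas all other CPM values use TMM-scaled library sizes. As a check of the genotypes, Tarsl2 itself was read with 456, 605 and 464 counts in wild-type libraries but with 40, 30 and 37 after the deletion, a log2 fold change of -3.81 (SE 0.16, edgeR adjusted p = 6.45e-07). Retina is named in the extraction note given with the samples, yet none of 10 retina markers passed 7 counts in any library and 3 were at 0 in all 6. The 9 skeletal muscle markers summed to 84866 to 89216 CPM in Tarsl2+/+ and 92116 to 100540 CPM in Tarsl2-/- mice. All 10 macrophage markers were lower in every Tarsl2-/- mouse than in every Tarsl2+/+ mouse, as were 12% of the 15075 genes tested. Of the 10, 7 were called lower at an edgeR adjusted p under 0.05 (70%, against 1.37% of all genes tested). Mouse 589 had the highest summed adipocyte markers (4366 CPM against 1879 to 2812 in the other 5 mice) and the highest summed slow fibre markers (2014 CPM against 971 to 1664).

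Of the 37 genes, 3 were higher in Tarsl2-/- muscle at an edgeR adjusted p under 0.05, namely Foxo4, Fbxo31 and Pink1, and 0 were lower. Over all 15075 genes tested, 0.896% were called higher and 1.37% lower, so that the 3 of 37 higher calls (8.11%) were a larger share than the background and the 0 lower calls were near it. At an unadjusted p under 0.05 by edgeR, 11 of the 37 were higher and 2 lower, against 19.8% of all genes tested, both directions together. DESeq2 called the same 3 genes and also Fbxo32 and Optn, against 1.96% of genes called higher by that tool. The values of the 3 Tarsl2-/- mice all lay above those of the 3 Tarsl2+/+ mice for 10 of the 37 genes (27.0%, background 12.6%) and all lay below for 2 (5.41%, background 12%). The median log2 fold change was 0.061 over the 37 genes and 0.0025 over all genes tested. Some muscle fibre markers moved with the 3 calls. Of the 9 skeletal muscle markers, Ckm (0.49), Des (0.50) and Myh1 (0.59) were called higher. Of 8 fast fibre markers tested, 1 was called higher, Actn3 (0.69). Below 0 were 2 of the 9, among them Mb (-0.11), and 3 of the 8, among them Pvalb (-0.23). Myh4 (-0.035) is counted below 0 in both lists, which also share Tnnt3 and Mylpf. The medians of the 2 lists were 0.14 and 0.12. All 10 slow fibre markers were above 0 (50.4% of all genes tested were), with a larger median of 0.41. Of these 10, 0 were called, and for 0 were the groups apart. The part of muscle fibre content in the values of Foxo4, Fbxo31 and Pink1 was not tested. In a bulk library, fewer cells of a type and less RNA per cell cannot be told apart, which holds for every gene described here.

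**Figure D1:**
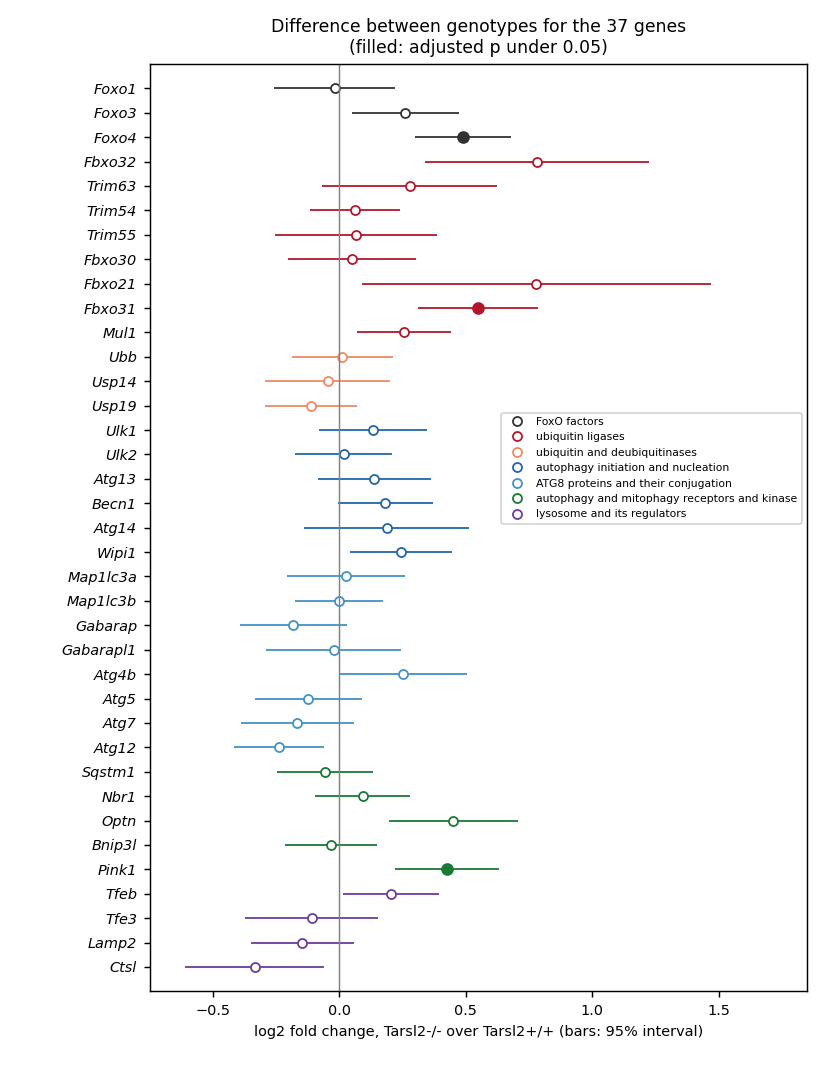
Each point is the log2 fold change of 1 gene, Tarsl2-/- over Tarsl2+/+ (n = 3 mice each), from edgeR, and the bar is its 95% interval. Filled points passed an adjusted p under 0.05: Foxo4, Fbxo31 and Pink1. All 8 ubiquitin ligases lie to the right of 0, whereas the autophagy genes lie on both sides.

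All 37 genes passed the filter on low counts, the lowest count of any of them in any library being 108. Per kilobase of gene length, the most abundant in Tarsl2+/+ muscle was Ubb, a polyubiquitin gene, at a mean of 527 CPM per kilobase. Next came the ATG8 genes Map1lc3a (258) and Gabarap (215), the mitochondrial kinase gene Pink1 (138), Sqstm1 (86.0) and the ligase gene Trim54 (83.0). At the lower end were Foxo3 (1.79), Foxo1 (1.52) and Tfe3 (1.48), all of which encode transcription factors. Among the FoxO genes the level of Foxo4 per kilobase (13.7) stood well above those of Foxo1 and Foxo3, whose mice ranged close to each other. The replicate spread was small: the median coefficient of variation over the 37 genes was 6.78% in Tarsl2+/+ and 6.45% in Tarsl2-/- mice.

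**Figure D2:**
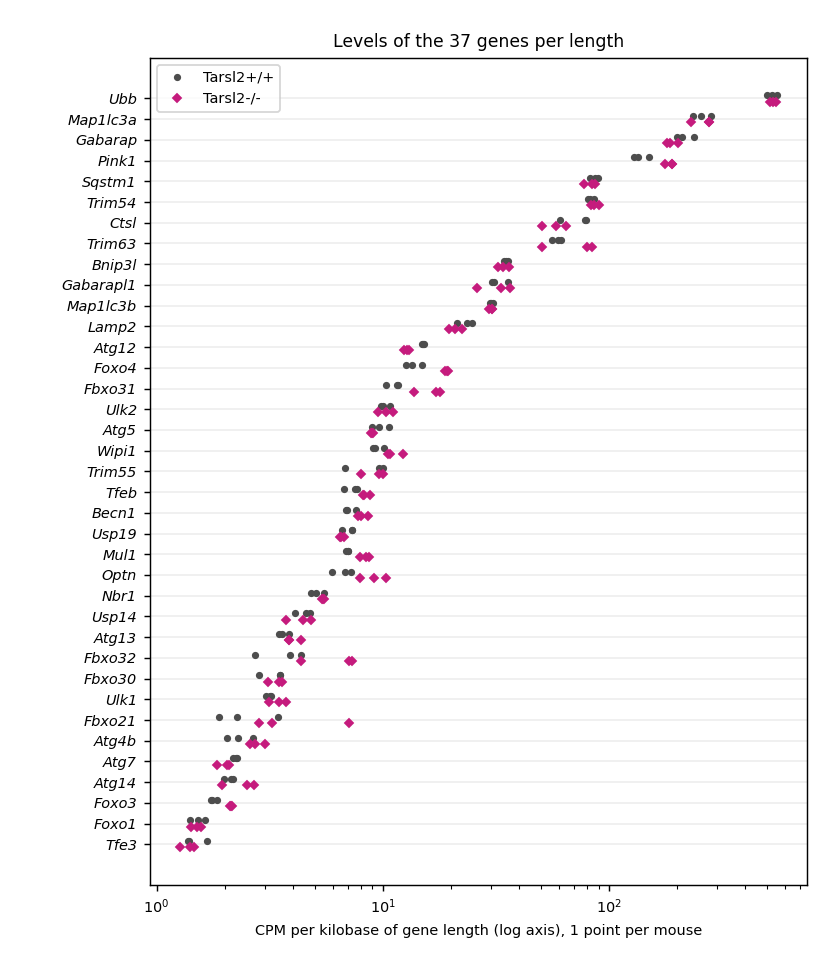
Each point is the level of 1 gene in 1 mouse, in CPM per kilobase of gene length on a log axis, with genes ordered by their Tarsl2+/+ mean. Ubb is at the top (mean 527) and Tfe3 at the bottom (1.48), and for most genes the 2 genotypes overlap.

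Among the FoxO factors, Foxo4 was higher, Foxo3 did not pass the test and Foxo1 was close to equal in the 2 genotypes. Foxo4 (ENSMUSG00000042903, mm10 chromosome X, 101254528 to 101260873, plus strand) stood at 47.0, 52.0 and 44.0 CPM in Tarsl2+/+ mice and at 65.9, 66.9 and 67.8 CPM in Tarsl2-/- mice. The groups did not overlap, and the Tarsl2-/- mice lay within 2 CPM of each other. The means were 47.7 ± 4.02 and 66.9 ± 0.922 CPM (SD, n = 3), a log2 fold change of 0.49 (SE 0.09, 95% interval 0.30 to 0.68, edgeR adjusted p = 0.0174). Its log2 fold change stayed between 0.43 and 0.56 when any 1 mouse was left out, but the edgeR adjusted p was above 0.05 without mouse 583 (0.0892), 595 (0.0691), 589 (0.0591) or 591 (0.0704). Here and for every gene below, the exact permutation test of 3 against 3 mice cannot give a p below 0.1, which is the value that each gene with groups apart received.

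Foxo3 (chromosome 10, 42181841 to 42276755, minus strand), often described as the main driver of atrophy genes in muscle, had 14.0, 13.3 and 13.2 CPM in Tarsl2+/+ and 16.1, 16.2 and 16.4 CPM in Tarsl2-/- mice. The groups were apart, with a log2 fold change of 0.26 (SE 0.10, 95% interval 0.05 to 0.47) that missed the threshold (edgeR adjusted p = 0.166). Foxo1 (chromosome 3, 52268336 to 52353221, plus strand), a regulator of fuel use as well as of atrophy genes, had 14.1, 12.2 and 13.2 against 12.3, 13.6 and 13.1 CPM. The groups overlapped throughout, and the log2 fold change of -0.018 had a 95% interval of -0.26 to 0.22 (edgeR adjusted p = 0.954). These are transcript levels, and the phosphorylation and location of the FoxO proteins, by which their activity is mostly set, were not measured here.

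All 8 ubiquitin ligase genes had a mean log2 fold change above 0, as did 50.4% of all genes tested, and their median was 0.27. Of the 8, 1 passed the test (12.5%, background 0.896%). The groups did not overlap for Fbxo32, Fbxo31 and Mul1, 3 of 8 genes (37.5%, background 12.6%). Fbxo31 (ENSMUSG00000052934, chromosome 8, 121549440 to 121578806, minus strand) encodes the substrate-binding F-box subunit of an SCF ligase best known for degrading cyclin D1 after DNA damage. Its levels were 64.0, 63.2 and 56.5 CPM in Tarsl2+/+ mice and 75.6, 98.2 and 94.7 CPM in Tarsl2-/- mice. The groups did not overlap, mouse 588 being the lowest of the Tarsl2-/- group, and the means were 61.3 ± 4.11 and 89.5 ± 12.1 CPM (SD, n = 3). The log2 fold change was 0.55 (SE 0.11, 95% interval 0.31 to 0.78, edgeR adjusted p = 0.0269), and it ranged from 0.48 to 0.65 with 1 mouse left out. The call was lost without mouse 583 (adjusted p = 0.0929), 595 (0.107), 589 (0.0964) or 591 (0.0968).

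Fbxo32 (ENSMUSG00000022358, chromosome 15, 58175879 to 58214892, minus strand), which encodes atrogin-1, the muscle F-box ligase subunit used most widely as a mark of atrophy, had the largest log2 fold change of the 37 genes but missed the threshold. It stood at 26.8, 18.9 and 30.0 CPM in Tarsl2+/+ mice and at 49.1, 30.1 and 50.8 CPM in Tarsl2-/- mice. The groups only just failed to overlap, since mouse 589 was 30.1 and mouse 595 was 30.0. The log2 fold change was 0.78 (SE 0.20, 95% interval 0.34 to 1.22, edgeR adjusted p = 0.0676), while DESeq2 gave an adjusted p of 0.00353. Without mouse 589 it was 0.99 with an edgeR adjusted p of 0.0211, so that leaving this mouse out called Fbxo32 in place of Fbxo31. With any other mouse left out the edgeR adjusted p was 0.0977 to 0.195, and limma-voom on all mice gave 0.0777.

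Trim63 (ENSMUSG00000028834, chromosome 4, 134315120 to 134329629, plus strand) encodes MuRF1, a RING ligase of the sarcomere. It had 174, 160 and 169 CPM in Tarsl2+/+ mice against 239, 144 and 226 CPM in Tarsl2-/- mice. Mice 588 and 591 were above all Tarsl2+/+ mice, whereas mouse 589 was the lowest of the 6. The log2 fold change was 0.28 (SE 0.16, 95% interval -0.07 to 0.62, edgeR adjusted p = 0.36), and without mouse 589 it was 0.48 (adjusted p = 0.0609). For both Fbxo32 and Trim63 the lowest mouse of each genotype was the same, mouse 584 in Tarsl2+/+ and mouse 589 in Tarsl2-/-.

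The other MuRF genes and Fbxo30 had small differences between genotypes. Trim54 (MuRF3, a microtubule-binding ligase of the sarcomere) ranged from 116 to 123 CPM in Tarsl2+/+ and from 120 to 130 CPM in Tarsl2-/- mice, a log2 fold change of 0.061 with a 95% interval of -0.12 to 0.24. Trim55 (MuRF2, also bound to the sarcomere) ranged from 18.1 to 26.8 and from 21.3 to 26.8 CPM, with a log2 fold change of 0.066 (95% interval -0.26 to 0.39). Fbxo30 (MUSA1, an F-box ligase subunit that bone morphogenetic protein signalling holds down) ranged from 14.7 to 18.3 and from 16.2 to 18.6 CPM, with a log2 fold change of 0.049 (95% interval -0.21 to 0.30). For each of these 3 genes the genotypes overlapped and the edgeR adjusted p was at least 0.725.

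Fbxo21 (SMART, a FoxO-dependent F-box ligase subunit of muscle) had the widest interval of the 37 genes. It had 12.5, 19.1 and 10.5 CPM in Tarsl2+/+ mice and 15.7, 39.1 and 18.0 CPM in Tarsl2-/- mice. Mouse 589 alone stood far above the rest, and the other 2 Tarsl2-/- mice were below mouse 584. The log2 fold change of 0.78 (SE 0.31, 95% interval 0.09 to 1.47, edgeR adjusted p = 0.198) fell to 0.27 without mouse 589 (adjusted p = 0.6). Seen only after the values were known, the order of the 6 mice by Fbxo21 (595, 583, 588, 591, 584, 589) was also their order by summed adipocyte markers, which were 1879, 2192, 2300, 2640, 2812 and 4366 CPM. The part of fat tissue in the Fbxo21 level was not tested. Mul1, a ligase of the outer mitochondrial membrane that acts on mitofusin, had 28.2, 28.2 and 27.4 CPM against 31.7, 34.6 and 33.6 CPM. The groups were apart, with a log2 fold change of 0.25 (SE 0.08, edgeR adjusted p = 0.131).

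**Figure D3:**
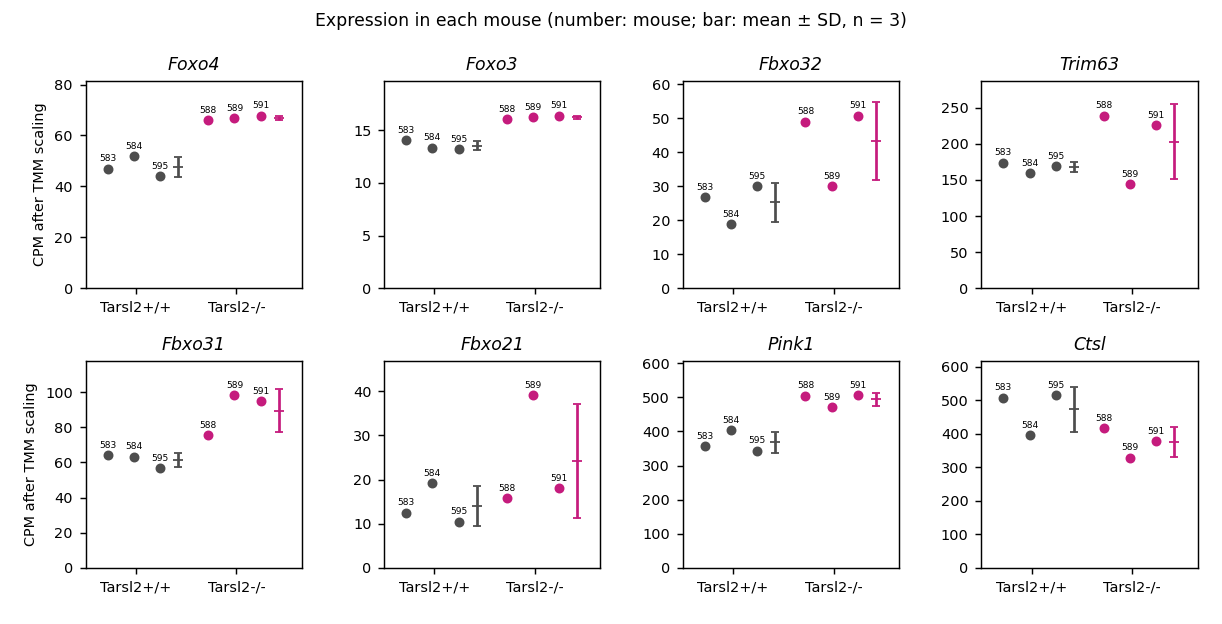
Each panel gives the CPM of 1 gene in each mouse after TMM scaling, with the mouse number above the point and the mean ± SD (n = 3) beside each genotype. The groups are apart for Foxo4, Foxo3, Fbxo31 and Pink1, and only just for Fbxo32 (30.1 against 30.0). Mouse 589 is the lowest Tarsl2-/- mouse for Fbxo32 (30.1), Trim63 (144) and Ctsl (329) and the highest of the 6 for Fbxo21 (39.1).

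Promoter sequence was looked up for the same genes. RefSeq windows on GRCm38.p6, taken as the 250 bases before a transcription start, were found for 29 of the 37 genes, and not for Foxo4, Fbxo32, Trim55, Usp14, Becn1, Bnip3l, Map1lc3a and Atg12. The 29 genes had 34 windows. The letters of a FoxO binding site are GTAAACA or its reverse complement TGTTTAC. They were present in 1 of the 34 windows, that of Trim63, against 3.17% of the 32851 promoters in the table. The match lay 194 bases before the Trim63 start (chr4:134314870-134315119, plus strand) and is printed in capitals, beside the promoter of Fbxo31, the ligase gene that passed the test (chr8:121578807-121579056, minus strand), which holds no match.
Trim63: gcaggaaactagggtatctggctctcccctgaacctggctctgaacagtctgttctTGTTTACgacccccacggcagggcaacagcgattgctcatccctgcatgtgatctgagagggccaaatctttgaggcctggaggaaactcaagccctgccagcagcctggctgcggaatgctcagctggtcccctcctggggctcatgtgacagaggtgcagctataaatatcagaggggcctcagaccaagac
Fbxo31: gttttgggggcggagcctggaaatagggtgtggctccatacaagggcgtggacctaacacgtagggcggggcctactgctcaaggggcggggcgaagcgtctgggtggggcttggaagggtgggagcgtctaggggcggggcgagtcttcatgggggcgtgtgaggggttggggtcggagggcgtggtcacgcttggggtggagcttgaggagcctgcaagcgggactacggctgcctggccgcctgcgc

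The Trim63 window was 56.8% G and C and the Fbxo31 window 68%. Such a match describes letters in a window and is not a measured binding site.

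Ubb and the 2 deubiquitinase genes had no call and log2 fold changes near 0. Ubb, 1 of the genes that provide ubiquitin, ranged from 835 to 928 CPM in Tarsl2+/+ and from 864 to 918 CPM in Tarsl2-/- mice, a log2 fold change of 0.012 (95% interval -0.19 to 0.21). Its coding sequence is made of repeats, so its count is less certain than those of the other genes. Usp14, a proteasome-bound deubiquitinase, had a log2 fold change of -0.046 (95% interval -0.29 to 0.20), and Usp19, which is raised in wasting muscle, had -0.11 (95% interval -0.29 to 0.07). The lowest edgeR adjusted p of the 3 was 0.492. Usp14 overlaps Thoc1 on the opposite strand, where 2669 counts were recorded over the 6 libraries, and whether the counting used strand was not stated.

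Of the 23 autophagy and lysosome genes, 12 had a log2 fold change above 0 and 11 below, with a median of 0.018. Of these, 1 was called higher, Pink1 (4.35%, background 0.896%), and 0 lower (background 1.37%). At an unadjusted p under 0.05 edgeR gave 5 higher and 2 lower, against 19.8% of all genes tested, both directions together. DESeq2 called 2 higher (Pink1 and Optn), against 1.96% of genes called higher by that tool. The groups were apart with Tarsl2-/- higher for 5 genes (21.7%, background 12.6%) and with Tarsl2-/- lower for 2 (8.70%, background 12%). The stages of the pathway are taken in turn.

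All 6 genes of initiation and nucleation had a log2 fold change above 0 (median 0.16), and none passed the test. Becn1 (Beclin 1, a scaffold of the lipid kinase complex that starts the membrane) had 48.5, 53.9 and 49.3 CPM in Tarsl2+/+ mice and 54.6, 56.6 and 60.8 CPM in Tarsl2-/- mice. Wipi1, which binds the lipid this complex makes, had 40.0, 40.7 and 44.6 CPM against 47.4, 46.7 and 54.3 CPM. Neither gene overlapped between genotypes, with log2 fold changes of 0.18 (SE 0.09, edgeR adjusted p = 0.269) and 0.24 (SE 0.09, edgeR adjusted p = 0.174). The kinases Ulk1 (0.13) and Ulk2 (0.018), their partner Atg13 (0.14) and the Beclin partner Atg14 (0.19) overlapped between genotypes, and their edgeR adjusted p ranged from 0.492 to 0.942.

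Among the 8 ATG8 proteins and conjugation genes, 6 had a log2 fold change below 0 and none passed the test. Map1lc3b (LC3B, the ATG8 protein most used to follow autophagosomes) was nearly the same in all 6 mice, at 224, 230 and 226 CPM in Tarsl2+/+ and 223, 229 and 227 CPM in Tarsl2-/- mice. Its log2 fold change of -0.0012 had a 95% interval of -0.18 to 0.17. Map1lc3a (LC3A, 0.025) and Gabarapl1 (a GABARAP relative and a known FoxO target, -0.023) overlapped between genotypes as well. Gabarap had 368, 386 and 436 CPM against 371, 334 and 343 CPM, a log2 fold change of -0.18 (SE 0.10, edgeR adjusted p = 0.323).

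The conjugation enzymes, which attach ATG8 proteins to the membrane, pointed both ways. Atg12, the ubiquitin-like protein that is joined to Atg5, had 37.9, 37.2 and 37.3 CPM in Tarsl2+/+ mice and 30.9, 31.9 and 32.6 CPM in Tarsl2-/- mice. The groups were well apart and tight, and the log2 fold change was -0.24 (SE 0.08, 95% interval -0.42 to -0.06), which missed the threshold (edgeR adjusted p = 0.138). Atg7, the E1-like enzyme of the pathway, had 15.2, 15.8 and 15.6 against 14.5, 14.2 and 12.8 CPM, also without overlap, with a log2 fold change of -0.17 (SE 0.10, edgeR adjusted p = 0.397). Atg5 (-0.12) overlapped between genotypes. Atg4b, the protease that trims ATG8 proteins, had 19.0, 22.0 and 17.0 against 21.5, 25.0 and 22.6 CPM, a log2 fold change of 0.25 (SE 0.11, edgeR adjusted p = 0.252). It overlaps Thap4 on the other strand (2816 counts over the 6 libraries), and Map1lc3b likewise overlaps Zcchc14 (1563 counts).

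Pink1 was the member of the receptor group that passed the test. Pink1 (ENSMUSG00000028756, chromosome 4, 138313409 to 138326307, minus strand) encodes the kinase that gathers on damaged mitochondria and recruits the ligase Parkin. It had 358, 403 and 344 CPM in Tarsl2+/+ mice and 505, 472 and 506 CPM in Tarsl2-/- mice. No value overlapped, and the means were 368 ± 30.9 and 494 ± 19.2 CPM (SD, n = 3), a log2 fold change of 0.43 (SE 0.09, 95% interval 0.22 to 0.63, edgeR adjusted p = 0.0425). Its log2 fold change was 0.38 to 0.50 with any 1 mouse left out, but the call was kept only without mouse 584 (adjusted p = 0.0202), and the other 5 fits gave 0.1 to 0.165. Upper quartile scaling also lost it, at an adjusted p of 0.0519. The Pink1 promoter window (chr4:138326297-138326546, minus strand, 57.2% G and C), printed because this gene was the autophagy gene called, holds neither the FoxO letters nor the E-box described further on. Its last few bases lie inside the gene as the count table places it.
Pink1: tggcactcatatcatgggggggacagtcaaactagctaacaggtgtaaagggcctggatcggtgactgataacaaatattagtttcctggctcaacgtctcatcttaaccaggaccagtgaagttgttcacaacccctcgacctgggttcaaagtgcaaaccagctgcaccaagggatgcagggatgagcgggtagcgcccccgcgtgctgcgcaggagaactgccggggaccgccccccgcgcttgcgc

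Optn (optineurin, a receptor that links ubiquitin on mitochondria to ATG8 proteins; chromosome 2, 5020642 to 5064051, minus strand) had 22.4, 27.2 and 25.6 CPM in Tarsl2+/+ mice. It had 29.8, 38.9 and 34.3 CPM in Tarsl2-/- mice, all above the Tarsl2+/+ mice. The log2 fold change was 0.45 (SE 0.12, 95% interval 0.20 to 0.70), with an adjusted p of 0.0676 by edgeR and 0.0325 by DESeq2. The other receptors had values near 0: Sqstm1 (p62) had a log2 fold change of -0.058 (95% interval -0.25 to 0.13), Nbr1 (a p62 relative) 0.092 (-0.10 to 0.28) and Bnip3l (NIX, a receptor on mitochondria) -0.033 (-0.22 to 0.15). Sqstm1 protein, whose loss is the usual measure of autophagic flow, was not measured here.

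**Figure D4:**
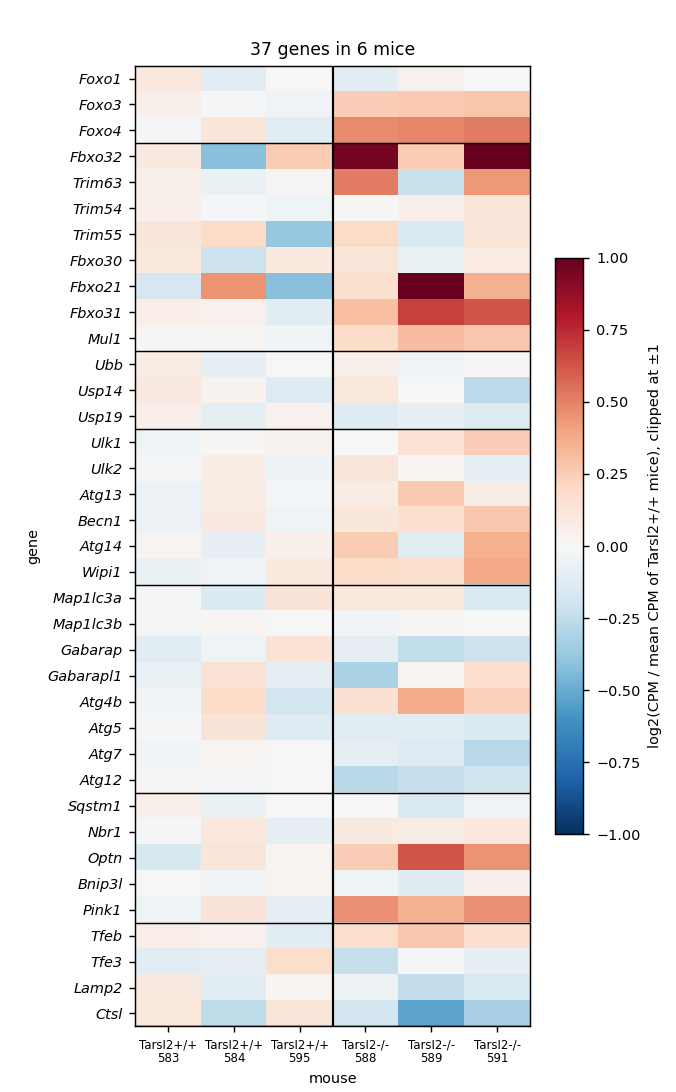
Rows are the 37 genes in their groups, columns are the 6 mice, and colour is log2 of CPM over the mean of the Tarsl2+/+ mice, clipped at ±1. Foxo4, Fbxo31, Optn and Pink1 are red in all 3 Tarsl2-/- mice, and Atg12 is blue in all 3. Fbxo32 and Fbxo21 are also red in all 3 but differ in strength, and Trim63 is red in mice 588 and 591 and blue in mouse 589.

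The lysosome genes and their regulators had no call. Tfeb, a master regulator of lysosome genes, had 43.4, 42.7 and 38.2 CPM in Tarsl2+/+ mice and 46.9, 49.9 and 46.5 CPM in Tarsl2-/- mice, a log2 fold change of 0.20 (SE 0.09, edgeR adjusted p = 0.219) with the groups apart. Its relative Tfe3 had -0.11 (95% interval -0.37 to 0.15) and Lamp2, a lysosomal membrane protein, -0.15 (95% interval -0.35 to 0.06). Ctsl (cathepsin L, a protease that is raised in many wasting muscles) pointed the other way from the atrophy ligases, at 508, 395 and 515 CPM against 417, 329 and 378 CPM. The groups overlapped through mouse 584, and the log2 fold change was -0.34 (SE 0.12, 95% interval -0.61 to -0.06, edgeR adjusted p = 0.167).

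Macrophages are rich in lysosomes, and their markers were lower in the same mice. The summed 10 macrophage markers were 1844, 1657 and 1874 CPM in mice 583, 584 and 595 and 1050, 942 and 1203 CPM in mice 588, 589 and 591. Mouse 584 was the lowest Tarsl2+/+ mouse and mouse 589 the lowest Tarsl2-/- mouse both for this sum and for Ctsl. The same mice were lowest in their genotype for the summed fibroblast markers (9911 and 8411 CPM) and red cell markers (4748 and 4166 CPM). The part of macrophages or of these other cells in the Ctsl values was not tested.

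The E-box letters CACGTG read the same on both strands and form the core of the site bound by Tfeb and its relatives. They were in 4 of the 34 promoter windows of the 29 genes with an entry, against 6.02% of all promoters. The 4 were Mul1 (111 bases before the start, chr4:138434553-138434574, plus strand), Atg7 (132 bases, chr6:114670956-114670977, plus strand), Atg5 (14 bases, chr10:44268317-44268338, plus strand) and Ctsl (236 bases, chr13:64370743-64370764, minus strand). They are shown with 8 bases on each side, the E-box in capitals, because the log2 fold changes of these genes differed in sign, at 0.25, -0.17, -0.12 and -0.34.
Mul1: agagctccCACGTGaccacagc
Atg7: ttggtggtCACGTGtgcagtaa
Atg5: gcgcttgcCACGTGgtcttggt
Ctsl: ttagaagcCACGTGctgatcta

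The starts used by RefSeq for Atg7 and Ctsl lie inside the genes as the count table places them. None of the 4 genes passed the test.

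The rest of the pathway was read from 7 lists that hold 114 tested genes beyond the 37, of which 4 were higher (Pdk4, Irs2, Klf15 and Retreg1; 3.51%, background 0.896%) and 1 lower (Nedd4l; 0.877%, background 1.37%). The 4 higher genes came from 2 of the lists. Of 17 FoxO-responsive genes outside atrophy, 3 were higher (17.6%, background 0.896%) and 0 lower. Pdk4, the kinase that shuts pyruvate out of mitochondrial oxidation, had 120, 121 and 115 CPM in Tarsl2+/+ mice and 343, 249 and 288 CPM in Tarsl2-/- mice. Its log2 fold change was 1.30 (SE 0.12, edgeR adjusted p = 0.000464), and it was the only gene of the 5 that kept its call in all 6 fits with a mouse left out. Irs2, an adaptor of the insulin receptor, had 6.66, 5.53 and 4.04 against 12.3, 11.2 and 9.04 CPM, a log2 fold change of 1.00 (SE 0.19, edgeR adjusted p = 0.0214). Klf15, a glucocorticoid-induced transcription factor of amino acid breakdown, had 25.7, 19.6 and 19.6 against 31.2, 40.2 and 36.5 CPM, a log2 fold change of 0.74 (SE 0.13, edgeR adjusted p = 0.0174). Both kept their call in 3 of 6 such fits.

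The other 14 genes of that list did not pass. Over all 17, 10 had a log2 fold change above 0 and 7 below, and the groups were apart with Tarsl2-/- higher for 7 (41.2%, background 12.6%). These 7 lists were written with results of these data known, and their counts are descriptions.

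Retreg1, a receptor for autophagy of the endoplasmic reticulum, was the call among 10 other receptor and mitophagy genes (10% higher, background 0.896%). It had 79.0, 67.7 and 74.4 CPM in Tarsl2+/+ mice and 125, 96.4 and 121 CPM in Tarsl2-/- mice, a log2 fold change of 0.63 (SE 0.11, edgeR adjusted p = 0.0174), which was kept in 2 of 6 fits with a mouse left out. In this list of 10, 8 genes had a log2 fold change above 0 and 2 below, with a median of 0.16. The groups were apart with Tarsl2-/- higher for 6 (60%, background 12.6%) and lower for 1 (10%, background 12%). Of 22 further core autophagy genes none passed, and the smallest p belonged to Atg10, the E2-like enzyme for Atg12, at 0.35 (edgeR adjusted p = 0.102).

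Among 16 other muscle ubiquitin ligases, Nedd4l was lower (6.25%, background 1.37%) and none was higher (background 0.896%). Nedd4l, a HECT ligase that acts on channels and receptors at the membrane, had 18.7, 19.7 and 21.2 against 13.4, 14.4 and 12.5 CPM, a log2 fold change of -0.57 (SE 0.10, edgeR adjusted p = 0.0194), which was kept in 2 of 6 fits with a mouse left out. In the list of 10 ubiquitin and conjugating enzyme genes none passed, and the smallest p was that of the E2 enzyme Ube2n at -0.22 (edgeR adjusted p = 0.175). The list of 20 upstream kinases and nutrient sensors held no call either, with Tsc1, an inhibitor of mTORC1, closest at 0.36 (edgeR adjusted p = 0.109).

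The 19 other lysosome genes held no call by edgeR, but 16 had a log2 fold change below 0 and 9 were lower in every Tarsl2-/- mouse than in every Tarsl2+/+ mouse (47.4%, background 12%). Their median was -0.14, against 0.0025 over all genes. Hexa, a lysosomal hexosaminidase, was closest to a call at -0.36 (SE 0.09, edgeR adjusted p = 0.0553). It was called under other settings, with an adjusted p of 0.00985 by DESeq2 and, by edgeR, of 0.0482 with upper quartile scaling, 0.0492 with at least 10 counts in every library and 0.0151 with no filter. With Ctsl, 5 cathepsin genes were listed, and all 5 were below 0 (from -0.34 to -0.25, adjusted p from 0.0851 to 0.167). As for Ctsl, the lower macrophage markers moved with these genes. So did the summed markers of endothelial cells (130 to 147 CPM in Tarsl2+/+ against 101 to 127 CPM in Tarsl2-/- mice), fibroblasts (9911 to 11907 against 8411 to 9644 CPM) and red cells (4748 to 10392 against 4166 to 4536 CPM). All 6 genes of each of these 3 lists had a log2 fold change below 0, and 1 gene in all was called lower, the endothelial gene Cdh5 (-0.64, edgeR adjusted p = 0.00929). The part of these cells in the lysosome values was not tested.

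**Figure D5:**
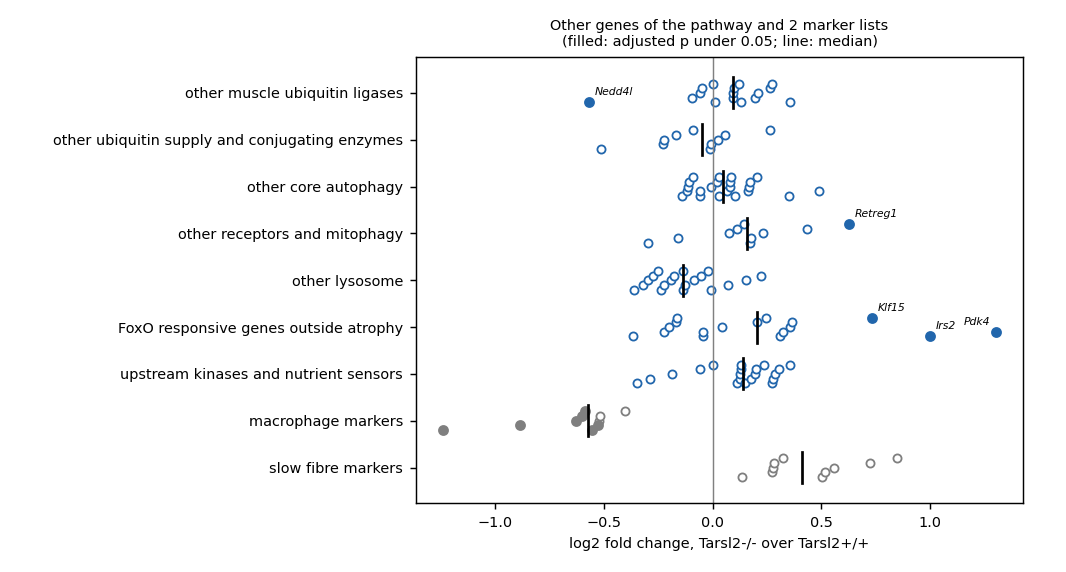
Each point is the log2 fold change of 1 gene, Tarsl2-/- over Tarsl2+/+, in 7 lists of further pathway genes (blue) and 2 marker lists (grey); the black line is the list median and filled points passed an adjusted p under 0.05. Pdk4 (1.30), Irs2 (1.00), Klf15 (0.74) and Retreg1 (0.63) are filled on the right and Nedd4l (-0.57) on the left. Most lysosome genes (median -0.14) and all macrophage markers (median -0.57) lie to the left of 0. Slow fibre markers (median 0.41) lie to the right of 0.

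The extremes were spread over the mice, though not evenly. Of the 37 genes, 12 had their highest value in mouse 591 and 7 in mouse 589, and 11 had their lowest in mouse 595. The Tarsl2-/- mice held the highest value for 23 genes and the Tarsl2+/+ mice for 14.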

How the data were processed

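RNA-seq libraries came from muscle of 3 Tarsl2+/+ and 3 Tarsl2-/- mice. The authors deposited 1 table of raw read counts per gene. According to the study's methods they used a stranded mRNA kit, paired-end sequencing and HISAT2 on mm10, whereas the submitters' processing notes list mm8 and Bowtie 0.12.2; the table's coordinates are those of mm10 (95.2% of its Ensembl genes match GENCODE vM21 exactly). The counting tool and its strand setting are not given in the sources used here. The 448 rows without a gene name were kept in the fit.

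The quasi-likelihood test of edgeR 4.0.16 (R 4.3.3) was run on TMM-scaled counts after filterByExpr at its defaults (minimum count 10, total 15). P-values were adjusted by Benjamini-Hochberg over the 15075 genes tested, with a threshold of 0.05. CPM are counts over the TMM-scaled library size, per 1000000, SE is the log2 fold change over the root of F, and SD is over mice. The scripts were tested on simulated data. Alternatives were DESeq2 1.42.0, limma-voom (limma 3.58.1), RLE and upper quartile scaling, other filters, and leaving out each mouse. DESeq2, in an older version, is the tool that the study's methods name for differential expression. The median 95% interval of the 37 genes spanned ±0.21 on the log2 scale, with a common biological coefficient of variation of 12.1%.

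Named were all 37 genes, every further pathway gene called and, in lists with no call, the gene with the smallest p. The genes and lists were chosen with earlier results of these data known. Gene names were matched to RefSeq promoters by symbol.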

Additional observations from a re-analysis of the deposited data

How the results depend on the processing

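The counts of calls depended on the tool, the filter and single mice. Over all genes, 135 higher and 207 lower calls by edgeR became 300 and 370 with DESeq2, and 611 and 826 with no filter beyond 1 count in any library. With 1 mouse left out they ranged from 31 to 242 higher and from 50 to 383 lower. FoxO factors called higher numbered 1, and 0 to 1 with a mouse left out. Ubiquitin ligases called higher numbered 1, 2 with DESeq2, 3 with no filter and 0 to 1 with a mouse left out. Autophagy genes called higher numbered 1, 2 with DESeq2, 0 with upper quartile scaling, 2 with no filter and 0 to 1 with a mouse left out, and those called lower numbered 0 but 1 (Ctsl) with no filter. Other pathway genes called higher numbered 4, 7 with DESeq2, 8 with no filter and 1 to 6 with a mouse left out. Those called lower numbered 1, 4 with DESeq2, 2 with upper quartile scaling, 6 with no filter, 2 with at least 10 counts in every library and 0 to 2 with a mouse left out. Without the filter the prior degrees of freedom of the edgeR fit were infinite, against 7.23 with it.

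Of 564 values for single genes under the alternatives, 503 kept their direction and side of the threshold, 28 lost the call, 12 gained it and 21, in 10 genes without a call, changed sign. With upper quartile scaling Ubb was -0.0099 and Ulk2 -0.0045, and with DESeq2 Map1lc3b was 0.0012. With a mouse left out the ranges spanned 0 for Foxo1 (-0.071 to 0.031), Trim55 (-0.094 to 0.17), Fbxo30 (-0.048 to 0.11), Ubb (-0.025 to 0.045), Usp14 (-0.13 to 0.051), Ulk2 (-0.038 to 0.071), Map1lc3a (-0.037 to 0.11), Map1lc3b (-0.014 to 0.011), Gabarapl1 (-0.13 to 0.10) and Bnip3l (-0.081 to 0.0094). Where no reason is given, the cause was not tested. No paired analysis was possible because no number is shared between Tarsl2+/+ and Tarsl2-/- mice.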

Other observations

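Gene families that hold several of the 37 genes were counted after their values had been seen, from gene symbols alone. Their counts of calls are close to the shares over all 15075 genes tested, 0.896% higher and 1.37% lower. Of 54 F-box genes tested, 1 was higher (Fbxo31) and 0 lower, with a median log2 fold change of 0.043. Of 41 Trim genes and 17 Atg genes, 0 were called in either direction by edgeR, with medians of -0.020 and -0.0056. Of 47 Usp genes, 0 were higher and 1 was lower, Usp18, which removes the ubiquitin-like protein ISG15, at a log2 fold change of -1.04 (SE 0.20, edgeR adjusted p = 0.0254).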
